A study of Homo sapiens with 8 samples.

Results

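The genes examined here encode the subunits of RNA polymerases I, II and III. They were chosen by symbol (POLR1, POLR2 or POLR3 followed by letters and at most 1 digit) among protein-coding genes, which gave 34 gene identifiers with 33 symbols of the 78932 identifiers counted, since POLR2J3 has 2 identifiers. By enzyme, 6 genes belong to polymerase I, 11 to polymerase II and 10 to polymerase III, 2 are shared by I and III, and 5 are shared by all 3 enzymes. CRCP, a further subunit of polymerase III, lies outside the symbol rule. Of the 34 identifiers, 31 passed the filter on low counts and were tested.

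Polymerase I transcribes the large ribosomal RNA precursor, polymerase II makes messenger RNA and many noncoding RNAs, and polymerase III makes transfer RNA, 5S ribosomal RNA and other short RNAs. Each enzyme has a pair of large catalytic subunits, a stalk and a set of smaller subunits, part of which is common to all enzymes. The messenger RNAs of all these subunits are themselves polymerase II transcripts, with cleaved and polyadenylated 3′ ends.

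All libraries came from HCT116, a human colorectal cancer line, in which the protein NUDT21 carries a degradation tag (dTAG-NUDT21). Cells of both groups received JTE-607, which inhibits CPSF73, the endonuclease of 3′ end cleavage. The control group (4 libraries) was given DMSO and the other group (4 libraries) dTAGV1, which brings proteins with the tag to the ubiquitin system. NUDT21 belongs to CFIm, a cleavage factor that recognises UGUA in nascent RNA ahead of poly(A) sites and affects which site is used. The labels give no dose, no time and no statement that the tagged line is or is not 1 clone, and no group without JTE-607 was analysed here. The comparison asks which counted RNA levels differ when the tagged protein is targeted while cleavage is inhibited.

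The libraries held 3447842 to 4291256 reads counted to genes on the sense strand. Levels are given as CPM (counts scaled to the total of reads counted to the tested genes) after TMM scaling. The kit reads 1 position near the 3′ end of each transcript, so levels of different genes were compared without a correction for length. Whether the 3′ ends of a gene moved into or out of its counted bases between the groups was not tested. A rise or fall below is thus one of counted reads and need not be one of RNA amount. NUDT21, the tagged gene, had 28.4, 33.5, 34.95 and 31.9 CPM with DMSO against 9.64, 8.76, 4.42 and 10.2 CPM with dTAGV1 (replicates 1 to 4 in order). These are levels of its RNA, and the protein, on which dTAGV1 acts, was not measured here. The 6 epithelial markers examined were all detected, with summed levels of 1683 to 1971 CPM with DMSO and 1353 to 1457 CPM with dTAGV1. They did not move together. With dTAGV1, KRT19, KRT18 and CLDN4 fell (log2 fold changes -0.65, -0.60 and -0.48) and EPCAM rose (0.28; edgeR, adjusted p under 0.05 for each). CDH1 (0.02) and KRT8 (-0.38) did not pass that threshold. Of 8 markers of blood, endothelial, stromal and liver cells, 7 had too few counts to be tested, and COL3A1 and ALB had none. The eighth, COL1A1, was at 17.3 ± 2.03 CPM with DMSO and 13.8 ± 1.77 CPM with dTAGV1 (SD, n = 4 each). The 8 markers summed to 15.9 to 21.3 CPM with DMSO and 11.2 to 15.3 CPM with dTAGV1. The part of either marker list in the results was not tested. In bulk RNA, fewer cells with a transcript and less of it per cell cannot be told apart, and the labels do not say whether replicates were separate cultures.

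The subunit genes did not move together. Of the 31 tested, 7 rose and 7 fell with dTAGV1, and 17 were not called (adjusted p under 0.05 in the quasi-likelihood test of edgeR, with Benjamini-Hochberg adjustment across all tested genes, as in every adjusted p from edgeR here). That is 45.2% called, where 57.9% of all 12618 tested genes were called, 29.4% as higher and 28.5% as lower. Their median log2 fold change was 0.00, against 0.01 over all tested genes, and their median absolute value was 0.29, against 0.42. Changes of more than 2-fold were called for 2 subunit genes, POLR3G and POLR3K, and for 16.6% of all tested genes. The groups of libraries did not overlap in CPM for 11 subunit genes, 6 above and 5 below the DMSO libraries, compared with 50.9% of all tested genes. With scaling by library size alone, which shifts the median of all genes by -0.07, 6 members were called higher and 9 lower.

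**Figure D1:**
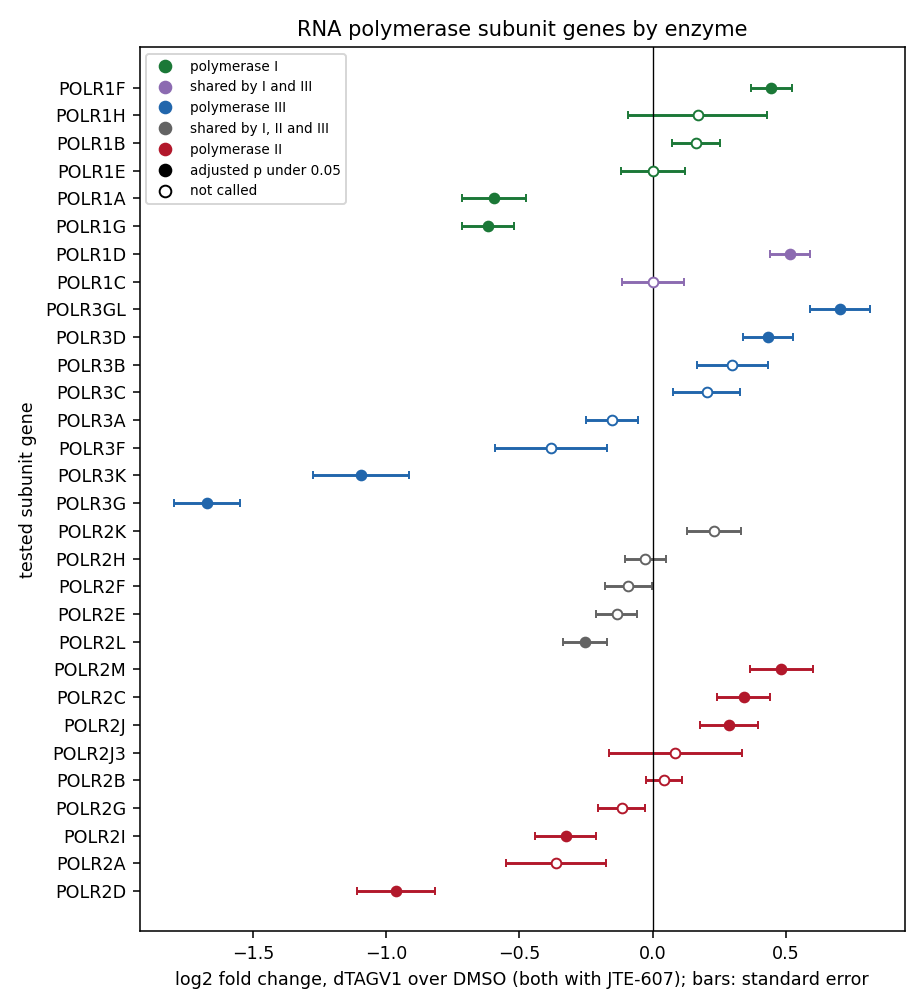
Log2 fold change (dTAGV1 over DMSO, x axis) with its standard error for tested subunit genes (y axis), coloured by the enzyme they belong to; filled points passed an adjusted p of 0.05. POLR3G lies lowest at -1.67 and POLR3GL highest at 0.71, and every class holds genes that were not called.

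Polymerase III held both the largest fall and the largest rise, and these belonged to a pair of alternative subunits. POLR3G and POLR3GL are paralogs that occupy the same place in the enzyme. POLR3G is known for its expression in pluripotent and tumour cells, POLR3GL for its broad expression in differentiated tissues. With DMSO, POLR3G had the more counts of the pair in every library, and with dTAGV1 POLR3GL did.

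POLR3G (ENSG00000113356; GRCh38 chromosome 5, 90471748 to 90514553, plus strand) had 63.1, 59.6, 65.4 and 71.7 CPM with DMSO against 22.7, 19.9, 15.3 and 22.9 CPM with dTAGV1 (replicates 1 to 4 in order). All dTAGV1 libraries were thus below all DMSO libraries, and the highest of them was well under the lowest DMSO value. It fell 3.19-fold, with a log2 fold change of -1.67 and a standard error of 0.12 (edgeR, adjusted p = 2.63e-11). POLR3GL (ENSG00000121851; chromosome 1, 145964702 to 145978848, plus strand) had 38.0, 37.1, 41.6 and 29.9 CPM with DMSO and 58.1, 54.4, 68.3 and 58.2 CPM with dTAGV1, in the same order. These groups did not overlap either, and POLR3GL rose 1.63-fold, a fitted log2 change of 0.71 ± 0.11 (SE; edgeR, adjusted p = 8.01e-06). In GENCODE 29, 21.2% of the exon bases of POLR3GL overlap ENSG00000280778 on the same strand, and that gene had no counts. A read in the shared bases fits more than 1 gene and is not counted. The 0 thus does not show that POLR3GL lost no reads, and its level is uncertain, as is the share of POLR3G in the pair.

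Within single libraries, the ratio of the pair needs no scaling. POLR3G made up 62.4%, 61.6%, 61.1% and 70.6% of the counts of both genes with DMSO, and 28.1%, 26.8%, 18.3% and 28.3% with dTAGV1 (replicates 1 to 4 in order). The log2 ratio of POLR3G to POLR3GL was 0.83 ± 0.29 in the DMSO group (SD, n = 4) and -1.56 ± 0.39 in the other (SD, n = 4), so that they differed by -2.39 (2-sided exact permutation test, p = 0.0286, the smallest that 4 against 4 libraries can give). The ratio thus changed 5.24-fold, with no overlap between the groups. POLR3G fell and POLR3GL rose, each without overlap, so the ratio had to separate the groups. The permutation p was therefore fixed in advance and adds no support to the changes of the single genes. Both genes together gave 102 ± 4.21 CPM in the DMSO libraries and 80.0 ± 3.99 CPM in the dTAGV1 libraries (SD, n = 4 each), so the rise of POLR3GL in CPM was smaller than the fall of POLR3G.

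**Figure D2:**
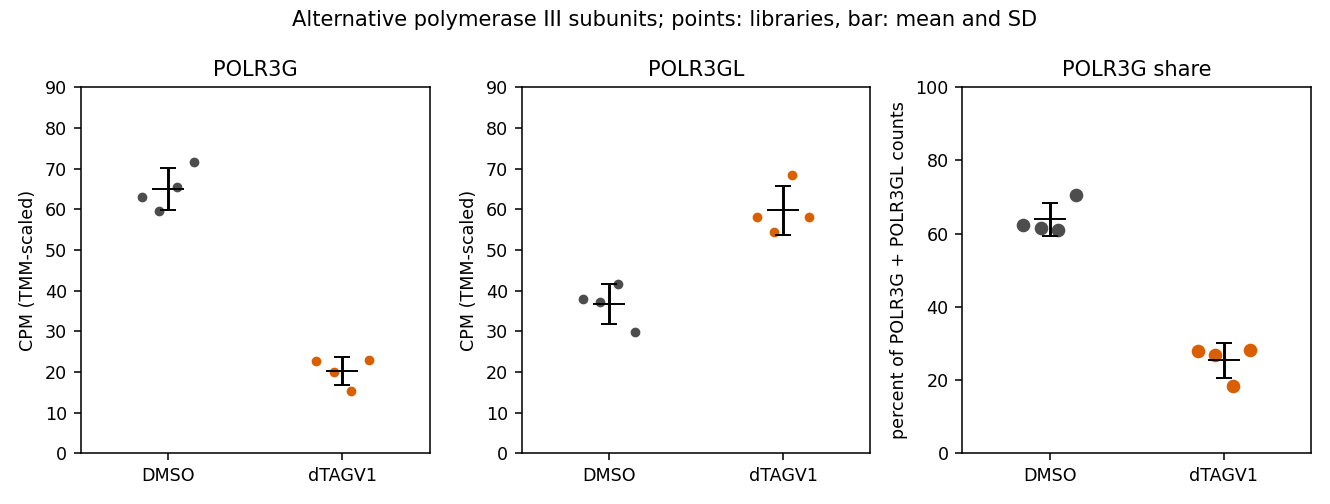
CPM of POLR3G (left) and POLR3GL (middle) and the share of POLR3G in the counts of both (right, percent), by group; points are libraries, bars the mean and SD of 4. The share is 61.1% to 70.6% in the DMSO libraries and 18.3% to 28.3% in the dTAGV1 libraries.

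POLR3G and POLR3GL join POLR3C and POLR3F in the subcomplex that polymerase III uses for initiation. Neither partner was called. POLR3C was at 31.7 ± 5.60 CPM with DMSO and 36.6 ± 1.78 CPM with dTAGV1, and POLR3F, 1 of the less abundant subunit genes, at 12.5 ± 3.11 and 9.56 ± 1.88 CPM (SD, n = 4 each). Their log2 fold changes were 0.20 and -0.38 (edgeR, adjusted p = 0.172 and 0.123). POLR3C passed the threshold without DMSO replicate 2 (log2 fold change 0.31, adjusted p = 0.0485), and POLR3F without DMSO replicate 4 (-0.51, adjusted p = 0.0490). The difference between POLR3G and these partners was not tested.

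POLR3K, a small subunit with roles in RNA cleavage and in termination by polymerase III, showed the next largest fall. POLR3K (ENSG00000161980; chromosome 16, 46407 to 53628, minus strand) had 18.9, 22.9, 19.2 and 20.5 CPM with DMSO against 6.24, 9.67, 11.8 and 10.4 CPM with dTAGV1 (replicates 1 to 4 in order). It fell 2.14-fold without overlap, a fitted log2 change of -1.10 ± 0.18 (SE; edgeR, adjusted p = 1.15e-05). Its counts were 69 to 95 with DMSO and 22 to 44 with dTAGV1.

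POLR3D rose, while its partner could not be assessed. POLR3D pairs with POLR3E in a dimer that resembles the general factor TFIIF of polymerase II and takes part in initiation and termination. POLR3D (ENSG00000168495; chromosome 8, 22245104 to 22254600, plus strand) had 58.2, 69.7, 63.8 and 71.0 CPM with DMSO and 92.1, 93.9, 91.6 and 78.0 CPM with dTAGV1, in the order of the replicates. All dTAGV1 libraries lay above all DMSO libraries, replicate 4 the closest to them, and the fitted log2 change was 0.43 ± 0.09 (SE; edgeR, adjusted p = 0.000320). POLR3E had 19 counts over all 8 libraries, between 0 and 5 in each, and was not tested. Whether gene models of the authors' annotation that are not in GENCODE 29 take reads from POLR3E was not tested.

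No catalytic subunit of polymerase III was called. POLR3A, the largest subunit, had 58.2, 62.7, 67.5 and 77.6 CPM with DMSO and 62.9, 58.9, 60.4 and 57.5 CPM with dTAGV1. These groups overlapped, with a log2 fold change of -0.15 and a standard error of 0.10 (edgeR, adjusted p = 0.192). POLR3B, its catalytic partner, had 26.5, 27.3, 19.2 and 24.5 CPM with DMSO and 32.0, 27.5, 29.2 and 31.2 CPM with dTAGV1. Every dTAGV1 library was above every DMSO library, yet the log2 fold change of 0.30 missed the threshold (standard error 0.13; edgeR, adjusted p = 0.0567). Without DMSO replicate 2 it passed, at 0.35 (adjusted p = 0.0460).

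CRCP, a stalk subunit of polymerase III, was at 57.2 ± 5.28 CPM with DMSO and 55.8 ± 7.42 CPM with dTAGV1 (SD, n = 4 each). Its fitted log2 change was -0.03 ± 0.11 (SE; edgeR, adjusted p = 0.847), and its groups overlapped.

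In polymerase I, the largest subunit fell. POLR1A (ENSG00000068654; chromosome 2, 86020216 to 86106155, minus strand) had 45.1, 50.2, 40.0 and 48.0 CPM with DMSO against 28.9, 36.6, 28.9 and 27.4 CPM with dTAGV1 (replicates 1 to 4 in order). The groups did not overlap, with dTAGV1 replicate 2 the nearest to DMSO, and the fitted log2 change was -0.60 ± 0.12 (SE; edgeR, adjusted p = 0.000134). POLR1B, the other catalytic subunit, had 78.7, 71.6, 72.3 and 82.8 CPM with DMSO and 82.2, 77.6, 85.7 and 95.5 CPM with dTAGV1. Its groups overlapped, and the log2 fold change of 0.16 (standard error 0.09) was not called (edgeR, adjusted p = 0.129).

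POLR1G and POLR1E form a dimer specific to polymerase I that resembles TFIIF. Of these, POLR1G fell (ENSG00000117877, formerly CD3EAP; chromosome 19, 45406209 to 45410766, plus strand). Its level was 125, 129, 162 and 165 CPM with DMSO and 99.8, 105, 89.8 and 85.6 CPM with dTAGV1. DMSO replicates 3 and 4 stood above replicates 1 and 2, and all were above the dTAGV1 libraries. The fitted log2 change was -0.62 ± 0.10 (SE; edgeR, adjusted p = 7.47e-06). POLR1G overlaps exons of ERCC1 and PPP1R13L on the other strand, and counting irrespective of strand left 809 of its 3634 sense counts. Its partner POLR1E was at 32.8 ± 3.36 and 32.8 ± 3.13 CPM (SD, n = 4 each; edgeR, adjusted p = 0.991).

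POLR1F, the stalk subunit through which polymerase I contacts the initiation factor RRN3, rose. POLR1F (ENSG00000105849, formerly TWISTNB; chromosome 7, 19695462 to 19709087, minus strand) had 106, 100, 111 and 105 CPM with DMSO and 141, 139, 145 and 150 CPM with dTAGV1. The groups were far apart relative to their spread, and the fitted log2 change was 0.45 ± 0.08 (SE; edgeR, adjusted p = 1.67e-05). POLR1H, which takes part in RNA cleavage by polymerase I, had 13 to 30 counts per library and a fitted log2 change of 0.17 ± 0.26 (SE; edgeR, adjusted p = 0.596). At that depth a change as large as that of POLR1F would lie within 2 standard errors. In GENCODE 29, 2.83% of the exon bases of POLR1H overlap ENSG00000278773 on the same strand.

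POLR1C and POLR1D form the dimer on which polymerases I and III are assembled. POLR1D rose (ENSG00000186184; chromosome 13, 27620742 to 27744237, plus strand). It had 124, 142, 132 and 137 CPM with DMSO and 179, 185, 201 and 201 CPM with dTAGV1. The groups did not overlap, and the fitted log2 change was 0.52 ± 0.08 (SE; edgeR, adjusted p = 2.27e-06). POLR1C was at 40.1 ± 2.08 and 40.0 ± 6.32 CPM (SD, n = 4 each), for a log2 change of 0.00 whose sign varied with the scaling (edgeR, adjusted p = 0.987). Whether the change of POLR1D differed from that of POLR1C was not tested.

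The corresponding dimer of polymerase II consists of POLR2C and POLR2J, and both rose. POLR2C (ENSG00000102978; chromosome 16, 57462387 to 57472010, plus strand) had 68.3, 78.4, 65.9 and 70.2 CPM with DMSO and 80.8, 77.9, 98.7 and 101 CPM with dTAGV1. Replicate 2 of the DMSO group reached into the range of the dTAGV1 libraries. The fitted log2 change was 0.34 ± 0.10 (SE; edgeR, adjusted p = 0.00423). POLR2C overlaps exons of DOK4 on the other strand and had 891 counts on its opposite strand beside 2410 sense counts. On its own strand, 4.59% of its exon bases overlap ENSG00000260345 in GENCODE 29. POLR2J was at 96.6 ± 10.5 CPM with DMSO and 118 ± 19.7 CPM with dTAGV1 (SD, n = 4 each). Its groups overlapped, with dTAGV1 replicate 4 at 89.4 CPM, below the DMSO mean. POLR2J was called as higher at a log2 change of 0.29 (edgeR, adjusted p = 0.0276). This call was the least stable of the members: it was lost without DMSO replicate 1, 2 or 4 and without dTAGV1 replicate 1, 2 or 3, at log2 fold changes of 0.21 to 0.28 and adjusted p-values of 0.0580 to 0.115, and with scaling by library size (0.21, adjusted p = 0.0805).

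In the stalk of polymerase II, formed by POLR2D and POLR2G, only POLR2D was called. POLR2D (ENSG00000144231; chromosome 2, 127843551 to 127858157, minus strand) had 25.4, 37.4, 36.6 and 35.9 CPM with DMSO against 17.6, 15.7, 15.3 and 20.3 CPM with dTAGV1 (replicates 1 to 4 in order). DMSO replicate 1 was the nearest to the dTAGV1 libraries and still above them all. POLR2D fell 1.95-fold, a fitted log2 change of -0.96 ± 0.15 (SE; edgeR, adjusted p = 4.64e-06). In GENCODE 29, 6.68% of its exon bases overlap RPS26P19 on the same strand. POLR2G was at 85.5 ± 6.35 and 78.8 ± 4.89 CPM (SD, n = 4 each), for a log2 change of -0.12 (edgeR, adjusted p = 0.268). The difference between the changes of the stalk partners was not tested.

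POLR2A, the largest subunit of polymerase II, whose C-terminal repeats recruit factors for 3′ end processing, was measured at low depth. It had 15.03, 11.6, 16.8 and 14.3 CPM with DMSO and 13.04, 13.3, 10.3 and 8.51 CPM with dTAGV1, from 35 to 63 counts per library. The groups overlapped, and the log2 fold change of -0.36 (standard error 0.19) was not called (edgeR, adjusted p = 0.102), although with scaling by library size it was (-0.44, adjusted p = 0.0483). POLR2B, the catalytic partner of POLR2A, was among the best measured members. Its level was 191, 195, 206 and 198 CPM with DMSO and 204, 206, 204 and 201 CPM with dTAGV1, which overlapped. The fitted log2 change was 0.04 ± 0.07 (SE; edgeR, adjusted p = 0.604), and -0.03 with scaling by library size.

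Of the other polymerase II members, POLR2M rose and POLR2I fell. POLR2M, also called Gdown1, binds the enzyme and hinders the access of TFIIF. POLR2M (ENSG00000255529; chromosome 15, 57706629 to 57782762, plus strand) had 31.4, 23.9, 28.0 and 27.9 CPM with DMSO and 40.2, 37.8, 35.6 and 41.4 CPM with dTAGV1. These groups did not overlap, and the fitted log2 change was 0.48 ± 0.12 (SE; edgeR, adjusted p = 0.00119). In GENCODE 29, 21.1% of its exon bases overlap GCOM1 on the same strand, so its level is uncertain.

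POLR2I (ENSG00000105258; chromosome 19, 36113710 to 36115346, minus strand) supports transcript cleavage and fidelity of polymerase II. It had 59.3, 64.6, 76.8 and 71.7 CPM with DMSO and 57.0, 65.6, 53.3 and 42.6 CPM with dTAGV1. The groups overlapped, with dTAGV1 replicate 4 the lowest. Its fitted log2 change was -0.33 ± 0.12 (SE; edgeR, adjusted p = 0.0184), and the call was lost without DMSO replicate 3 (-0.27, adjusted p = 0.0773) or dTAGV1 replicate 4 (-0.23, adjusted p = 0.0694). The near-identical copies POLR2J2 and POLR2J3 were hardly counted. POLR2J2 had 4 counts, all in dTAGV1 replicate 4. The POLR2J3 identifier ENSG00000168255 had 0 counts. On the total of counted reads, that allows up to 0.0992 CPM over the 8 libraries by counting error alone. In GENCODE 29, 76.2% of its exon bases overlap other genes on the same strand, where a read fits more than 1 gene and is not counted, so the 0 does not show a lack of transcript. The identifier ENSG00000285437 had 13 to 28 counts per library (log2 fold change 0.09; edgeR, adjusted p = 0.790). The same kind of overlap covers 20.8% of the exon bases of POLR2J2 and 21.9% of those of ENSG00000285437. Reads that fit more than 1 copy are not in these counts, nor in those of POLR2J.

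**Figure D3:**
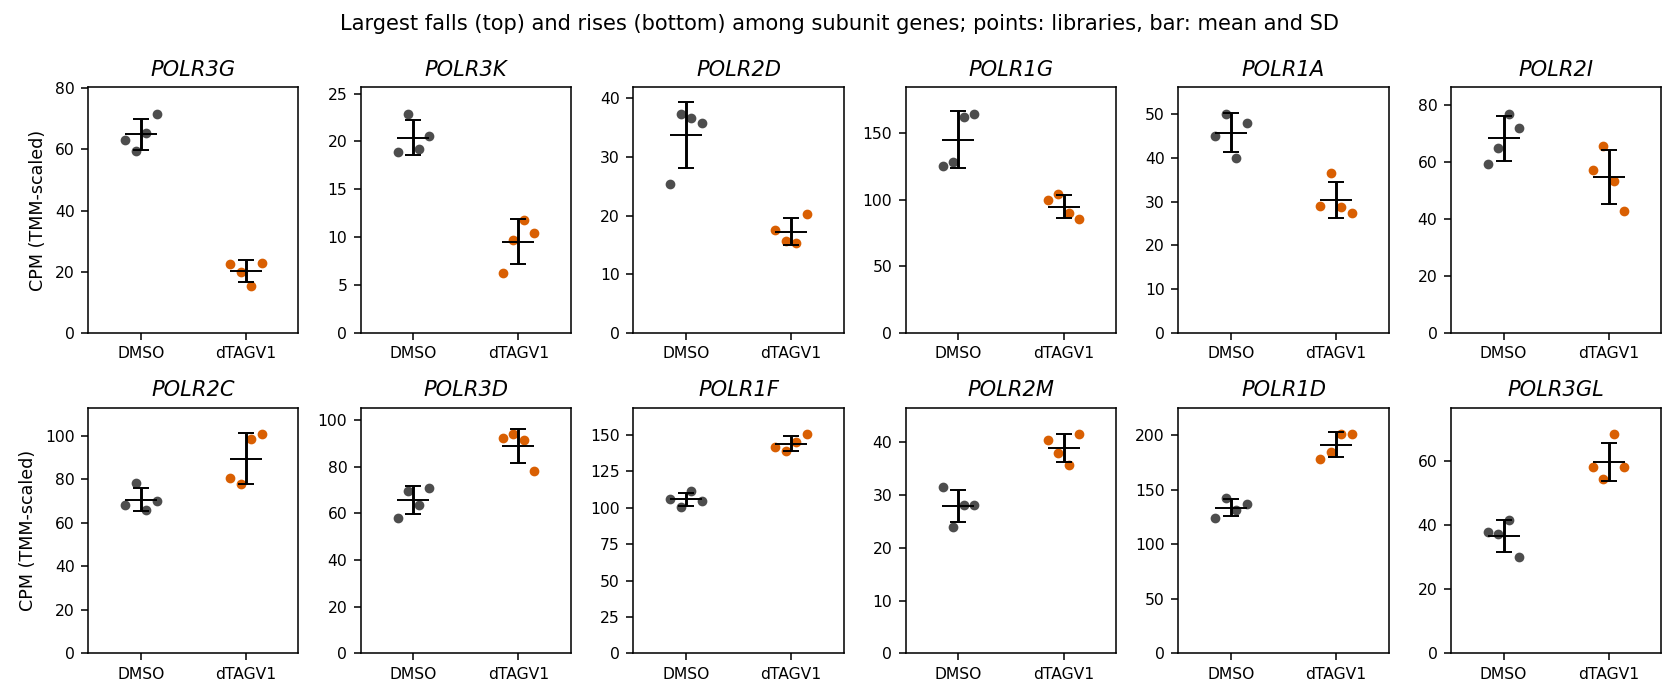
CPM (TMM-scaled) of the 6 subunit genes with the largest called falls (top row) and the 6 with the largest called rises (bottom row); points are libraries, bars the mean and SD of 4. POLR2I and POLR2C are the 2 panels in which the groups overlap.

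The 5 subunits shared by all enzymes had the highest summed level of the classes. POLR2E, POLR2F, POLR2H, POLR2K and POLR2L are small subunits that hold the core of each enzyme together. Their log2 fold changes ran from -0.25 to 0.23, and 1 of 5 was called. POLR2L fell from 192 ± 13.2 to 161 ± 18.1 CPM (SD, n = 4 each), a fitted log2 change of -0.25 ± 0.08 (SE; edgeR, adjusted p = 0.0102). Its groups overlapped, and the call was lost without DMSO replicate 2 (-0.21, adjusted p = 0.0504).

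The remaining shared subunits were not called. POLR2K had a log2 fold change of 0.23 (edgeR, adjusted p = 0.0563), which passed without dTAGV1 replicate 1 (0.29, adjusted p = 0.0204) or 2 (0.28, adjusted p = 0.0283) and with the replicate number as a block (0.22, adjusted p = 0.0440). POLR2E had one of -0.13 (adjusted p = 0.142), which passed with scaling by library size (-0.21, adjusted p = 0.0178) and with counts irrespective of strand (-0.21, adjusted p = 0.0230). POLR2F and POLR2H were at -0.09 and -0.03 (adjusted p = 0.387 and 0.780). The standard errors of these 5 values were 0.08 to 0.10, among the lowest of the members.

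Set side by side, the enzymes differed little in their counts of calls. Counting shared subunits with each enzyme, 2 of 13 tested members of polymerase I rose and 3 fell, with a median log2 fold change of 0.00. For polymerase II, 3 of 14 rose and 3 fell, with a median of -0.06. For polymerase III, 3 of 16 rose and 3 fell, with a median of -0.01. These shares are 38.5%, 42.9% and 37.5%, beside 57.9% of all tested genes, and they count the common subunits, of which 1 of 5 was called, in every enzyme. Among genes specific to 1 enzyme, the shares called were 50.0% for polymerase I, 55.6% for polymerase II and 44.4% for polymerase III, nearer to that of all genes. The differences between enzymes were not tested.

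Levels were also summed over the subunit genes of each class. The genes specific to polymerase I summed to 412 ± 22.5 CPM with DMSO and 394 ± 6.75 CPM with dTAGV1 (SD, n = 4 each). Those of polymerase II summed to 600 ± 25.8 and 618 ± 16.1 CPM, and those of polymerase III to 345 ± 11.0 and 337 ± 6.69 CPM. All 3 sums overlapped between the groups. The subunits common to all enzymes summed to 791 ± 34.8 and 739 ± 37.6 CPM, again with overlap. The sum of POLR1C and POLR1D was 174 ± 7.78 and 231 ± 17.1 CPM, without overlap, and POLR1D accounts for its rise.

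**Figure D4:**
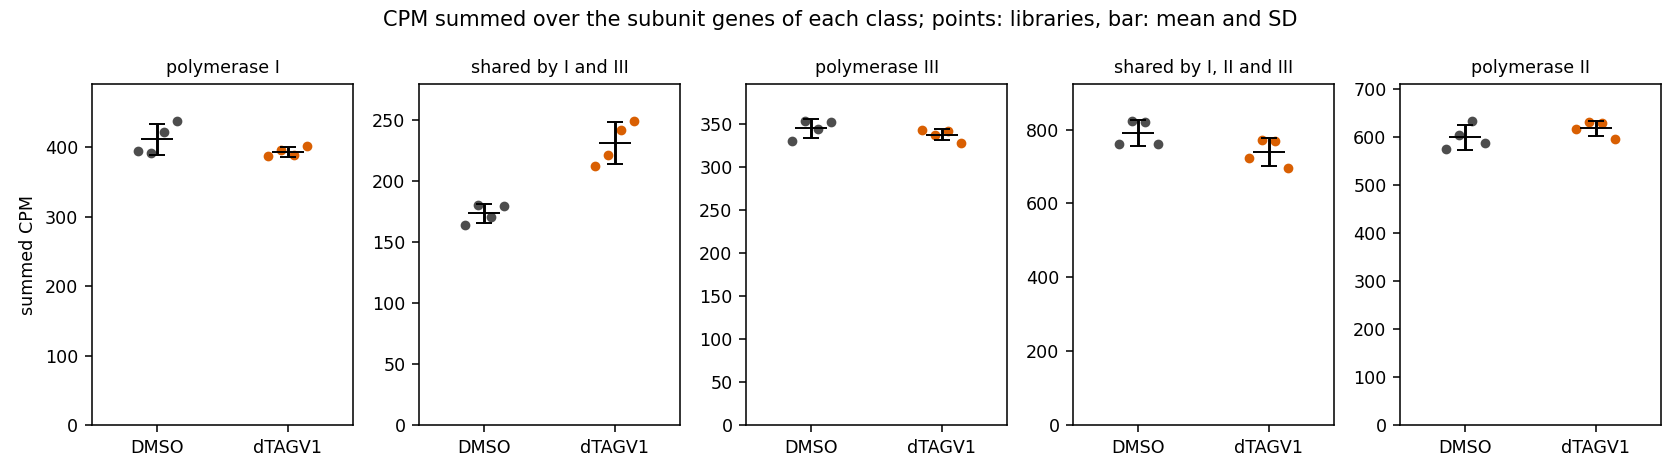
CPM summed over the subunit genes of each class (y axis) in DMSO and dTAGV1 libraries; points are libraries, bars the mean and SD of 4. The groups overlap in every class but the one shared by I and III, where all dTAGV1 libraries are higher.

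Counted levels spanned a wide range among subunits of the same enzyme. Whether the counts capture the 3′ ends of different genes equally was not tested, so a difference between genes need not be one of RNA level. With DMSO, POLR2E had the highest mean, 280 CPM, followed by POLR2B with 198 CPM and POLR2L with 192 CPM, which differed by less than their spread. The lowest tested means were those of POLR2J3 (5.32 ± 0.22 CPM) and POLR1H (5.52 ± 1.88 CPM; SD, n = 4 each). POLR2A was at 14.4 ± 2.17 CPM, lower than its catalytic partner POLR2B in every library. In polymerase III, POLR3A (66.5 ± 8.34 CPM), POLR3D (65.7 ± 5.88 CPM) and POLR3G (64.9 ± 5.11 CPM) led with DMSO and differed by less than their spread. With dTAGV1, POLR3D led with 88.9 ± 7.33 CPM, and POLR3G was at 20.2 ± 3.54 CPM.

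**Figure D5:**
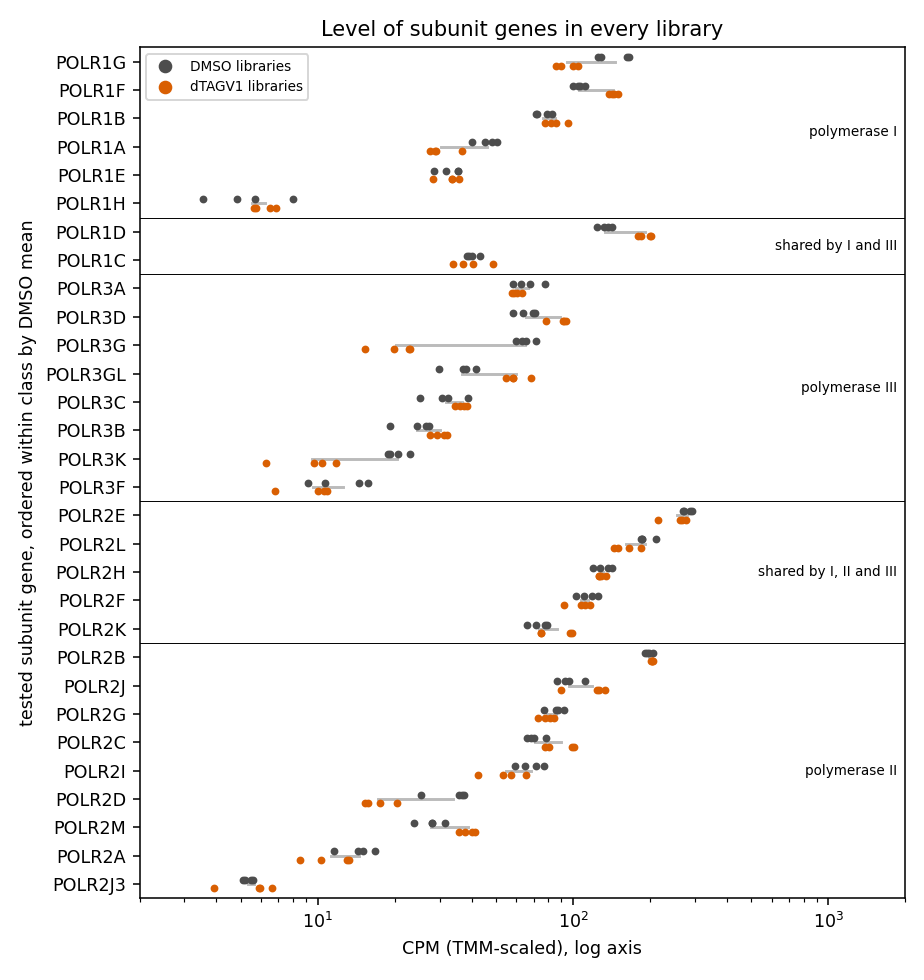
CPM of tested subunit genes in every library (log x axis), grouped by enzyme and ordered by the DMSO mean; grey points are DMSO libraries, orange points dTAGV1 libraries, and a grey line joins the group means. Levels reach from 5.32 CPM for POLR2J3 to 280 CPM for POLR2E with DMSO.

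CFIm binds UGUA, written TGTA in DNA, so the last 100 bases of the principal GENCODE 29 transcript of each gene were searched for TGTA on the transcript strand. The motif was in this window for 55.6% of 10637 tested protein-coding genes. Among members it was there for 3 of 7 that rose, 3 of 7 that fell and 8 of 17 not called. POLR3G, POLR3GL, POLR3K and POLR2D, the members with the 4 largest changes, had no TGTA in it. An annotated end need not be the poly(A) site used in these cells, and the use of single sites was not analysed here. Only the end of 1 transcript per gene was searched. POLR1D has 9 annotated ends, POLR3G, POLR2D and POLR2M have 3 each, and POLR3GL and POLR1A have 2 each. The called members with the motif are shown because they are those in which a CFIm motif lies near the end of the searched transcript. Each stretch holds 30 bases of GRCh38 on the transcript strand, from GENCODE 29 transcripts, with TGTA in capitals.
POLR1D (rose; chr13:27623402-27623431, plus strand): ctgcaagaacctcTGTAttcttctaataaa
POLR1F (rose; chr7:19695509-19695538, minus strand): acagtgaatccttTGTAtaatgaaagcatc
POLR2M (rose; chr15:57717481-57717510, plus strand): tttaccagttatgTGTAtaacaatatggtt
POLR1A (fell; chr2:86020249-86020278, minus strand): gcccagcctcattTGTActtcagtttgcaa
POLR2I (fell; chr19:36113720-36113749, minus strand): tctctcccccgagTGTAataaacaccagat
POLR2L (fell; chr11:839768-839797, minus strand): cagtgttcacaccTGTAgtcccggccactc

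These sites lie 27 to 64 bases before the end of the searched transcript. The window of POLR1A held 2 matches, of which the one nearest the end is shown. They occur in genes that rose and in genes that fell, and a match is a description of the sequence, not of binding.

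Genes that act with the polymerases were examined as 4 lists. For polymerase I, the list holds initiation factors and the termination factor TTF1, which was not called. Of its 6 tested genes, 2 were called, TAF1D and TAF1B, and both rose. TAF1D, a subunit of the promoter factor SL1, rose most, from 266 ± 17.2 to 324 ± 24.2 CPM, for a log2 change of 0.29 (edgeR, adjusted p = 0.00162). RRN3, the factor contacted by POLR1F, had too few counts to be tested. The list median was 0.07, against 0.01 over all tested genes.

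Of 29 tested general transcription factors of polymerase II, 6 rose and 8 fell, with a median of 0.06. TAF1, the largest subunit of TFIID, fell from 150 ± 12.1 to 67.0 ± 6.84 CPM, a fitted log2 change of -1.16 ± 0.09 (SE; edgeR, adjusted p = 5.18e-11). TAF5, another TFIID subunit, rose from 21.5 ± 3.00 to 40.9 ± 7.58 CPM, for a log2 change of 0.93 (edgeR, adjusted p = 5.25e-06). Neither gene overlapped between the groups. TAF5 had 698 counts on its opposite strand beside 933 sense counts over all libraries.

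Among 16 initiation factors of polymerase III and its repressor MAF1, 5 rose and 5 fell, with a median of -0.04. BRF2, the TFIIB-like factor for promoters of the U6 type, rose from 10.0 ± 0.712 to 17.7 ± 1.82 CPM, for a log2 change of 0.83 (edgeR, adjusted p = 0.000150). Counting irrespective of strand left 14 of the 413 sense counts of BRF2, which had 229 counts on its opposite strand. SNAPC2, a subunit of the complex that binds small nuclear RNA promoters, fell from 50.9 ± 4.19 to 31.3 ± 1.66 CPM, for a log2 change of -0.70 (edgeR, adjusted p = 5.05e-06). Both act at promoters of the U6 type, and they moved in opposite directions.

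Of 12 factors for the assembly and nuclear import of polymerases, 2 rose and 6 fell, with a median of -0.17. PIH1D1, a component of the R2TP cochaperone, fell from 93.7 ± 4.80 to 53.3 ± 1.63 CPM, for a log2 change of -0.81 (edgeR, adjusted p = 2.01e-08). Counting irrespective of strand left 10 of the 2235 sense counts of PIH1D1. GPN3, a GTPase for polymerase II import, rose from 49.0 ± 3.73 to 66.7 ± 5.15 CPM, for a log2 change of 0.44 (edgeR, adjusted p = 0.000384). The shares called in the 4 lists were 33.3%, 48.3%, 62.5% and 66.7%, beside 57.9% of all tested genes. POLRMT, the mitochondrial RNA polymerase, which is not related to the nuclear enzymes, rose from 30.5 ± 2.75 to 39.5 ± 6.05 CPM (SD, n = 4 each), for a log2 change of 0.37 (edgeR, adjusted p = 0.0145).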

How the data were processed

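RNA 3′ ends of 8 HCT116 libraries were sequenced with the Lexogen QuantSeq forward kit, per the labels. The authors deposited raw counts of reads per gene, 1 table per library, in the layout of STAR. The submitters' processing notes also name FastQC, fastp, HTSeq, DESeq2 and the GRCh38 build. The annotation, versions and use of molecular identifiers are not given in the sources used here. The deposited counts on the strand of the gene were used. Between 56.7% and 62.8% of reads per library belonged to no gene row and stayed out of library sizes.

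Symbols came from a table of names (61481 identifiers) and gene types and coordinates from GENCODE 29 on GRCh38 (57356 identifiers), which is not stated to be the authors' annotation. Genes were tested with edgeR 4.0.16 in R 4.3.3 (filterByExpr, TMM, robust quasi-likelihood F test, group as the only term). Benjamini-Hochberg adjustment covered the 12618 tested genes, and the threshold was an adjusted p of 0.05. The standard error is the absolute log2 fold change divided by the square root of F. The ratio of POLR3G to POLR3GL, with 1 count added to each, was compared by an exact permutation test with SciPy 1.17.1. P-values measure the spread between these libraries, which may be technical. Pairs of replicates differed by more than sampling noise (chi-square over degrees of freedom 1.89 to 5.63). Figures were drawn with matplotlib 3.10.9.

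The members and lists were chosen with earlier results of these data known. Values per library are given for both catalytic subunits of each enzyme, for POLR3G and POLR3GL, and for the 6 largest called rises and falls, and other lists are represented by their largest called rise and fall. CRCP, POLRMT and NUDT21 were named as single genes. Alternatives were DESeq2 1.42.0, limma-voom (limma 3.58.1), RLE and library-size scaling, no filter, a mean of at least 100 counts, counts irrespective of strand, the replicate number as a block, a prior of 0.5 counts in the ratio, and leaving out each library. Counts, class sums and medians cover all members, of which 1 tested member is not reported singly here and is not drawn.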

Additional observations from a re-analysis of the deposited data

Results flagged for a closer look

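In 64 sets of 4 values (31 tested subunit genes and the POLR3G to POLR3GL ratio, in 2 groups), 6 held 1 library far from the others, where chance flags about 1 set in 20. POLR1A was at 36.6 CPM in dTAGV1 replicate 2 and at 27.4 to 28.9 CPM in the other dTAGV1 libraries. POLR2D was at 25.4 CPM in DMSO replicate 1 and at 35.9 to 37.4 CPM in the other DMSO libraries. POLR3D was at 78.0 CPM in dTAGV1 replicate 4, below the 91.6 to 93.9 CPM of the others. POLR2L was at 211.5 CPM in DMSO replicate 2, above the 184 to 186 CPM of the others. The log2 ratio of POLR3G to POLR3GL was 1.25 in DMSO replicate 4, where the others had 0.65 to 0.73, and -2.14 in dTAGV1 replicate 3, where the others had -1.43 to -1.33. Both of these deviations point away from the other group. Without the library in question, POLR1A, POLR2D and POLR3D kept their calls, and POLR2L lost its own.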

How the results depend on the processing

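Of the 14 called subunit genes, 11 kept their call in every alternative in which they were tested; POLR2I, POLR2J and POLR2L did not. Of the 17 genes not called, 11 were called in no alternative. Over the alternatives 6 to 8 members were higher and 5 to 9 lower. POLR3G ranged from -1.76 to -1.58 and POLR3GL from 0.61 to 0.77. A mean of at least 100 counts left 4120 genes called in all, since fewer were tested, and POLR2D and POLR3K were then not tested. Leaving out each library gave 6861 to 7232 called genes, 6 to 8 members higher and 6 to 8 lower. The ratio of POLR3G to POLR3GL then differed by -2.47 to -2.20 with an exact permutation p of 0.0571 each time, the smallest that 4 against 3 libraries can give. The lack of overlap in each of the 2 genes fixed this p in advance.

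Genes near 0 changed sign without being called. POLR1E was at -0.0074 with RLE scaling, -0.0077 with DESeq2, -0.073 with library-size scaling, -0.020 without a filter, -0.018 with a mean of at least 100 counts and -0.027 irrespective of strand. POLR1C was at -0.0064 with RLE scaling, -0.0078 with DESeq2, -0.0076 with the replicate block, -0.0047 with limma-voom, -0.072 with library-size scaling, -0.019 without a filter, -0.017 with a mean of at least 100 counts and -0.075 irrespective of strand. With library-size scaling POLR2B was at -0.032. Leaving out libraries moved POLR1E from -0.063 to 0.058, POLR1C from -0.13 to 0.070, POLR2H from -0.075 to 0.0044 and POLR2J3 from -0.029 to 0.20. The cause was not tested.

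Same-numbered libraries of both groups deviated from their group means with correlations of 0.131, -0.0176, 0.0232 and 0.0340 across genes, and 1 of 4 dTAGV1 libraries correlated best with its own number, so the numbers were not taken to pair the libraries. With the replicate number as a block, 8 members were higher, 7 lower and 7434 genes called in all. For the ratio, the block chosen after seeing the data kept the difference of -2.39 with an exact permutation p of 0.125, the smallest that 4 pairs can give. That p was also fixed by the lack of overlap in POLR3G and POLR3GL. The least precise members, POLR1H, POLR2J3, POLR3F and POLR2A, had standard errors of 0.19 to 0.26.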
